A study of Mus musculus with 22 samples.

Results

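The expression of 10 genes that respond to ERK signalling was followed while primed epiblast stem cells of the mouse (mEpiSCs) were reverted to a naive state. The genes were the Sprouty genes Spry2 and Spry4, the Sprouty-related genes Spred1 and Spred2, the dual-specificity phosphatase genes Dusp4, Dusp5 and Dusp6, and the ETS transcription factor genes Etv1, Etv4 and Etv5. They were taken by symbol, from a list that was chosen with earlier results of these data known. All 10 were present among the 34489 genes of the count table and passed the filter on low counts.

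Fibroblast growth factors bind receptor tyrosine kinases and activate RAS, RAF, MEK and ERK in turn. ERK then raises the transcription of its own inhibitors: Sprouty and Spred proteins act on the steps between the receptor and RAF, and dual-specificity phosphatases remove the activating phosphates from MAP kinases. Etv1, Etv4 and Etv5 encode the PEA3 group of ETS factors, which are widely used as readouts of FGF signalling. FGF and ERK signalling sustains the primed state and drives naive cells out of theirs, and for this reason naive mouse embryonic stem cells (mESCs) are kept in 2iL, an inhibitor of MEK (PD0325901) and an inhibitor of GSK3 (CHIR99021) with leukemia inhibitory factor (LIF).

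Bulk RNA-seq covered 22 libraries. Naive mESCs gave 1 library of Rex1-GFP cells, which carry GFP under the promoter of the naive marker Rex1 and served as the positive control. Primed mEpiSCs gave 1 library of Oct4GIP cells, which carry eGFPiresPuro under the Oct4 promoter and were grown on fibronectin with FGF2 and Activin A, and 1 library of 129/MSM cells, a line from MSM/Ms and 129X1/SvJ mice that was grown on mouse embryonic fibroblast (MEF) feeders, also with FGF2 and Activin A. Oct4GIP cells were then cultured on feeders for 8 or 16 days (d8, d16) in Basal medium, in 2iL, or with the AMPK activator AICAR alone or together with LIF, which gave 8 libraries of unsorted cultures. Cells treated for 16 days were moved to 2iL without activator. Reverted Oct4GIP cells were sampled after 2 and 3 passages (AICAR, AICAR+LIF; 4 libraries, d16+2–3p) and after 10 passages (metformin+LIF, and AICAR and A769662 each with or without LIF), and reverted 129/MSM cells after 10 passages (AICAR, AICAR+LIF), so that d16+10p had 7 libraries. Each library was the only one of its line, treatment, day and passage. The p-values therefore measure the spread between libraries that were pooled as a state. The primed lines also differed in sex (Oct4GIP XX, 129/MSM XY) and in medium. Oct4GIP was kept in serum-free medium and 129/MSM in medium with knockout serum replacement. Line, sex, medium and culture on feeders cannot be told apart in the primed pair. No label says whether libraries of the same treatment at 2, 3 and 10 passages came from 1 culture. The tests treated them as independent.

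Totals ranged from 438771 reads (AICAR+LIF d8) to 5290163 (Basal d16), with 956357 in AICAR d8 and 1689495 in AICAR d16+10p. A count of 3 corresponded to between 0.566 and 5.93 CPM (counts scaled to a common library total with edgeR's TMM factors), and such floors and all intervals from counts cover counting error only. Naive markers (Zfp42, Esrrb, Tfcp2l1, Klf2, Nr5a2) summed to 2971 CPM in naive mESCs, 16.9 and 24.0 in primed mEpiSCs, 2003 to 2478 at d16+2–3p and 2673 to 3574 at d16+10p. In the d8 and d16 cultures they summed to 1.89 to 20.9 CPM, and Pou5f1, which encodes the pluripotency factor Oct4, was at 0.754 to 35.6 CPM there against 461 or more in every other library. Markers of fibroblasts (10 genes, among them Col1a1) summed to 3107 to 51004 CPM in the d8 and d16 cultures, to 65.1 in primed Oct4GIP, 849 in primed 129/MSM, 102 and 109.5 at 2 passages, 13.7 and 17.4 at 3 passages, 22.3 to 36.7 at d16+10p and 24.2 in naive mESCs. The labels give epiblast as the tissue of all libraries, but in the cultures before expansion Pou5f1 was near absent and fibroblast markers were high. The pluripotency gene Nanog was 1.45 to 75.1 CPM there (60.3 and 243 in primed), but Sox2, another such gene, was 99.0 to 312 CPM (52.4 and 58.9 in primed). Markers of primed cells (Fgf5, T, Eomes, Otx2, Foxa2) summed to 11.6 to 88.1 CPM on d8 and 9.23 to 142 CPM on d16. They summed to 136 CPM in primed Oct4GIP and 961 CPM in primed 129/MSM. In bulk RNA, fewer cells of a type and less RNA per cell cannot be told apart.

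On GRCm38 (GENCODE release M21) the genes lay on 9 chromosomes: Spry2 (ENSMUSG00000022114) on chromosome 14 at 105891947 to 105896819, Spry4 (ENSMUSG00000024427) on chromosome 18 at 38586247 to 38601415, Spred1 (ENSMUSG00000027351) on chromosome 2 at 117121374 to 117182279, and Spred2 (ENSMUSG00000045671) on chromosome 11 at 19924375 to 20024026. Dusp4 (ENSMUSG00000031530) was at 34807297 to 34819894 of chromosome 8, Dusp5 (ENSMUSG00000034765) at 53529109 to 53542431 of chromosome 19, and Dusp6 (ENSMUSG00000019960) at 99263231 to 99267489 of chromosome 10. Etv1 (ENSMUSG00000004151) was at 38779380 to 38870484 of chromosome 12, Etv4 (ENSMUSG00000017724) at 101769742 to 101785371 of chromosome 11 and Etv5 (ENSMUSG00000013089) at 22381309 to 22439719 of chromosome 16. Reads were counted on annotated transcripts, so the values cover the exons of each gene. For all 10 genes the transcript counts summed to the gene count.

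When levels were divided by the length of the transcript with most reads, Etv5 came first in naive mESCs (86.4 CPM per kilobase) and in all 11 reverted libraries. Primed Oct4GIP had Dusp6 (96.0 CPM per kilobase), Etv5 (66.3) and Etv4 (49.2) in the first 3 places, whereas in primed 129/MSM these were Spry2 (46.3), Dusp6 (40.1) and Etv5 (39.2). At d16+10p, the mean of Etv5 was 109.5 CPM per kilobase, that of Spry2 28.2 and that of Dusp6 1.26. The whole gene count was divided by the length of that 1 transcript. It held 48.1% of the reads of Etv5, 45.1% of Dusp6, 24.0% of Etv4 and 100% of Spry2, so the order may depend on this choice.

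**Figure D1:**
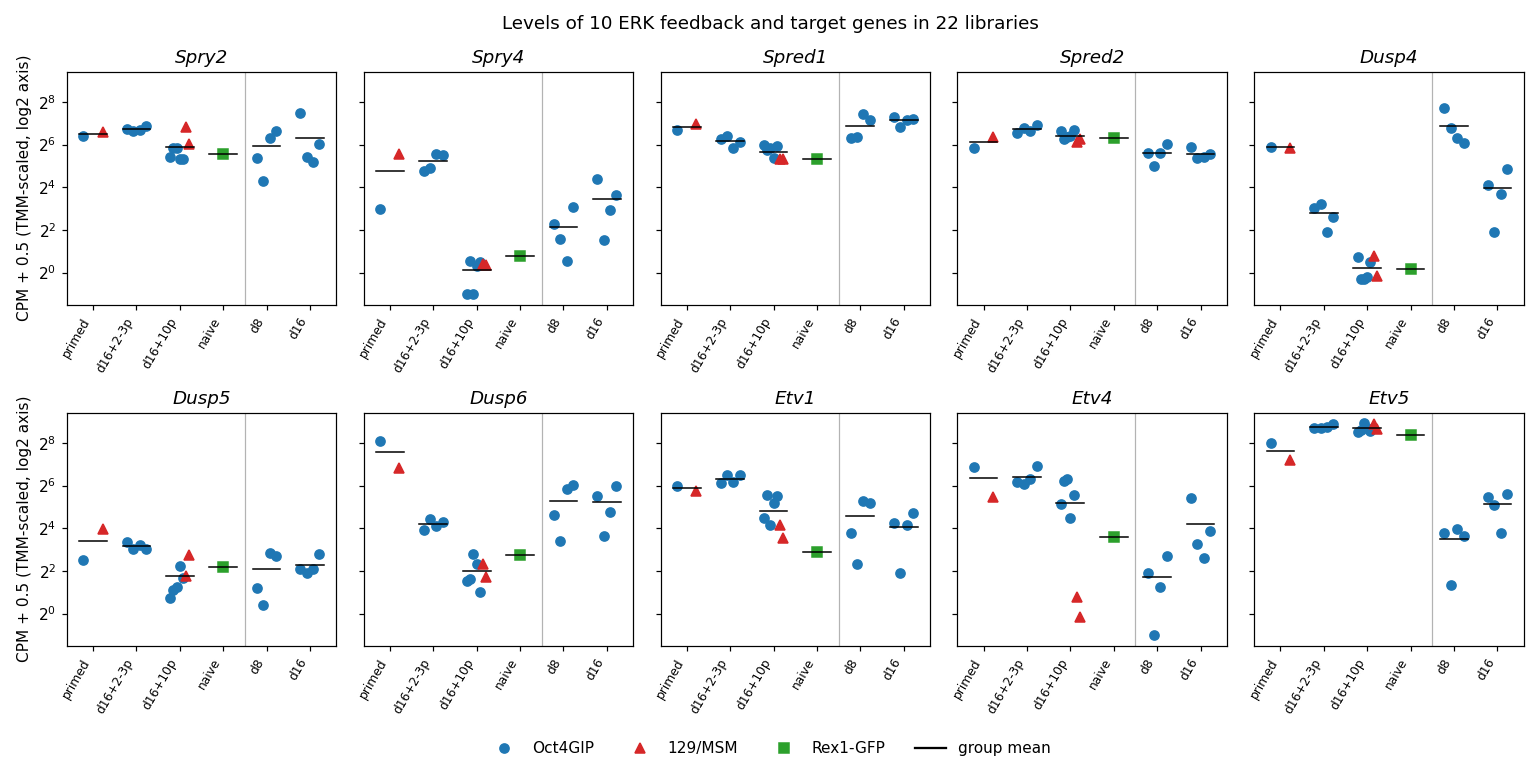
Levels of the 10 genes in 22 libraries. Each point is 1 library, the vertical axis is TMM-scaled CPM plus 0.5 on a log2 scale, the horizontal axis gives the state or day, and lines are group means. Spry4 and Dusp4 lie at 1.23 CPM or less in all 7 d16+10p libraries, and Etv5 lies at 358 CPM or more in all 11 reverted libraries and at 47.8 CPM or less in all 8 cultures.

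Spry4 separated early from late reverted cells. This gene, which inhibits receptor tyrosine kinase signalling upstream of ERK, was read at 26.6 and 29.7 CPM after 2 passages in 2iL (AICAR and AICAR+LIF) and at 46.5 and 44.6 CPM after 3 passages. After 10 passages it had 0 counts in AICAR and A769662, 2 in A769662+LIF and in both 129/MSM libraries, and 3 in AICAR+LIF and metformin+LIF. No d16+10p library thus came near the d16+2–3p libraries, and naive mESCs had 4 counts (1.24 CPM). Summed over libraries, Spry4 was at 0.630 CPM at d16+10p (12 counts, 95% exact Poisson interval 0.326 to 1.10) and at 36.4 CPM at d16+2–3p (423 counts), a ratio of 57.8 (95% exact binomial interval 32.8 to 113, counting error only). The difference had an adjusted p of 1.34e-05 (edgeR's quasi-likelihood test, Benjamini-Hochberg over 18739 genes), and that from primed mEpiSCs 3.13e-06.

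The primed lines stood apart in Spry4, at 7.36 CPM in Oct4GIP and 46.4 CPM in 129/MSM. The early reverted Oct4GIP libraries were all above primed Oct4GIP, and the test of d16+2–3p against primed gave an adjusted p of 0.627 (edgeR) with a log2 fold change of 0.45 ± 0.65 (SE). The fibroblast marker sum was lowest, at 13.7 and 17.4 CPM, in the libraries at 3 passages, where Spry4 was highest among reverted cells.

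Spry2, the other Sprouty gene, varied less. Its level was 83.1 and 96.7 CPM in primed Oct4GIP and 129/MSM, and 105, 100.4, 103 and 117 CPM in the d16+2–3p libraries. At d16+10p it was 42.4 in AICAR, 56.4 in AICAR+LIF, 57.3 in A769662, 39.6 in A769662+LIF and in metformin+LIF, and, in 129/MSM, 112 in AICAR and 64.3 in AICAR+LIF. All 5 late Oct4GIP libraries were below the 4 early ones, whereas the late 129/MSM library with AICAR lay among them. Spry2 passed the threshold in none of the 3 comparisons of states (adjusted p 0.360, 0.767 and 0.195 by edgeR), and naive mESCs were at 45.9 CPM.

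Spred1 and Spred2, which restrain RAS and RAF activation at the membrane, moved little beside Spry4. Spred1 was 102 and 123 CPM in the primed lines, between 57.0 and 84.8 CPM at d16+2–3p, between 39.2 and 61.8 CPM at d16+10p and 39.4 CPM in naive mESCs. It fell between primed and d16+10p, the log2 fold change being -1.16 ± 0.24 (SE, adjusted p = 7.05e-04, edgeR), with no overlap between the 2 primed and the 7 late libraries. Spred2 ranged from 57.4 to 118 CPM over these states, its groups overlapped, and it passed the threshold in no comparison of states (adjusted p 0.0541 to 0.364, edgeR).

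Dusp6 and Dusp4 were far below their primed levels in all reverted libraries. Dusp6, a cytoplasmic phosphatase that acts on ERK, was 269 CPM in primed Oct4GIP and 112 CPM in primed 129/MSM. It was 14.5, 21.3, 16.7 and 19.3 CPM in the d16+2–3p libraries, and at d16+10p it was 2.35 in AICAR, 2.59 in AICAR+LIF, 6.47 in A769662, 4.52 in A769662+LIF, 1.49 in metformin+LIF, and 4.49 and 2.74 in 129/MSM with AICAR and AICAR+LIF. The 3 states did not overlap, and naive mESCs (6.21 CPM) lay within the late range. The log2 fold change of Dusp6 from primed was -3.40 ± 0.56 at d16+2–3p (adjusted p = 8.06e-05) and -5.72 ± 0.51 at d16+10p (adjusted p = 4.49e-08), and between the reverted groups it was -2.32 ± 0.48 (adjusted p = 0.00444; edgeR, errors are SE).

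Dusp4, a nuclear MAP kinase phosphatase, followed the same order. It was 59.2 and 56.5 CPM in the primed lines, 7.70, 8.75, 3.27 and 5.62 CPM at d16+2–3p, and at most 3 counts (0.308 to 1.23 CPM) in every d16+10p library, with 2 counts in naive mESCs. The log2 fold change from primed to d16+2–3p was -3.18 ± 0.51 (SE, adjusted p = 6.74e-05, edgeR). Summed over d16+10p libraries, Dusp4 had 12 counts, and the ratio of the primed sum to theirs was 91.7 (95% exact binomial interval 51.8 to 179) and that of the d16+2–3p sum 10.1 (5.46 to 20.5), with adjusted p of 2.02e-08 and 0.00134 (edgeR).

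Dusp5, an inducible nuclear phosphatase of ERK, was read at low levels throughout. It was 5.15 CPM in primed Oct4GIP, 15.2 CPM in primed 129/MSM, 9.77, 7.61, 8.71 and 7.73 CPM at d16+2–3p, and between 1.18 and 6.27 CPM (2 to 16 counts) at d16+10p. The late libraries were all below the early ones, with a log2 fold change of -1.504 ± 0.44 (SE, adjusted p = 0.0345, edgeR). Without any 1 of the 4 early libraries, or of AICAR, AICAR+LIF, A769662, metformin+LIF and 129/MSM AICAR at d16+10p, that p was between 0.0521 and 0.101. The fall from primed to d16+10p (log2 fold change -1.77 ± 0.52, SE, adjusted p = 0.0113) rested on primed 129/MSM, as without it the log2 fold change was -0.80 (adjusted p = 0.440, edgeR).

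Promoter sequences are shown for Dusp6, which was below primed at d16+2–3p already, and for Dusp5, which was at 7.61 to 9.77 CPM there and lower at d16+10p. RefSeq promoters, from 250 bases before to 50 bases after the start of transcription, were found for 7 of the 10 genes (9 promoters, GRCm38.p6). Both strands were searched for GGAAGT and CCGGAA (cores bound by ETS factors), TGANTCA (AP-1), TGACGTCA (cAMP response element) and the CArG box of serum response factor. Capitals mark matches, and the motifs do not overlap one another here. The promoters are chr10:99262981-99263280 and chr19:53528895-53529194, both on the plus strand.
Dusp6: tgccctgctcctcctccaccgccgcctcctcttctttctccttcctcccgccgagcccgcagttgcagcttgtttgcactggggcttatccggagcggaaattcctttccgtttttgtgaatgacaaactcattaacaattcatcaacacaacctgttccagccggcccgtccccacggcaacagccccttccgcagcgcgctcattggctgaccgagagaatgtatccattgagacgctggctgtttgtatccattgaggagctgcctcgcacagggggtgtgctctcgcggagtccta
Dusp5: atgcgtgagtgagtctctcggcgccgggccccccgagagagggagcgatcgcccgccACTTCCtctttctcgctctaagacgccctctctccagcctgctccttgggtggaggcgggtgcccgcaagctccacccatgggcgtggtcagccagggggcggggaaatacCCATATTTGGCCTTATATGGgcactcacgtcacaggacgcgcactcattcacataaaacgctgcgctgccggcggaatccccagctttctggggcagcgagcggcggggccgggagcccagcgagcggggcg
Dusp5 held 2 CArG boxes side by side and 1 ETS core (GGAAGT, on the other strand), whereas Dusp6 held none of the 5 motifs in this window. Of all 32851 promoters of this length, 1.63% held a CArG box, 23.8% GGAAGT, 14.9% CCGGAA, 7.81% TGANTCA and 1.79% TGACGTCA. Spred2, Etv1 and Etv5 held GGAAGT in 1 promoter each and Spry2 held CCGGAA once. The other motifs were not matched in the 9 promoters, which says only that these letters are not there.

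Etv5 went the other way. This ETS factor gene was 250.2 CPM in primed Oct4GIP and 148 CPM in primed 129/MSM, and 419, 419.9, 426 and 471 CPM in the d16+2–3p libraries. The d16+10p libraries had 358 in AICAR, 384 in AICAR+LIF, 480.0 in A769662, 418 in A769662+LIF, 378 in metformin+LIF, and 477 and 398 in 129/MSM with AICAR and AICAR+LIF. All 11 reverted libraries were above both primed lines and above naive mESCs (326 CPM). Etv5 rose from primed by 1.13 ± 0.41 on the log2 scale at d16+2–3p (adjusted p = 0.0330) and by 1.06 ± 0.38 at d16+10p (adjusted p = 0.0354; edgeR, errors are SE). Without primed 129/MSM these were 0.81 (adjusted p = 0.241) and 0.72 (adjusted p = 0.290), and without A769662 or 129/MSM AICAR at d16+10p, or any 1 early library, the adjusted p lay between 0.0503 and 0.0641. Reads of Etv5 were divided over 5 annotated transcripts, of which Etv5-203 took 48.1%, and reads shared by near-identical isoforms could be lost or assigned to either.

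Etv1, of the same ETS group, was lower in late than in early reverted cells. It was 62.9 and 52.4 CPM in primed Oct4GIP and 129/MSM and 68.7, 89.8, 71.5 and 88.9 CPM at d16+2–3p. At d16+10p it was 21.8 in AICAR, 47.0 in AICAR+LIF, 17.6 in A769662, 35.8 in A769662+LIF, 45.0 in metformin+LIF, and 17.2 and 10.97 in 129/MSM with AICAR and AICAR+LIF. The 2 reverted groups did not overlap, and every d16+10p library was above naive mESCs (6.83 CPM). The log2 fold change of -1.503 ± 0.44 (SE) had an adjusted p of 0.0345 (edgeR). It was between 0.0623 and 0.0943 without any 1 early library or without AICAR, A769662, 129/MSM AICAR or 129/MSM AICAR+LIF at d16+10p, and 0.102 with Oct4GIP alone.

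Etv4, the remaining member of the group, differed between the lines after 10 passages. Primed Oct4GIP and 129/MSM were at 117 and 43.3 CPM, and the d16+2–3p libraries at 71.1, 66.6, 79.5 and 120.2 CPM. Late reverted Oct4GIP cells had 34.1 in AICAR, 72.7 in AICAR+LIF, 77.6 in A769662, 21.9 in A769662+LIF and 46.8 in metformin+LIF, all above naive mESCs (11.5 CPM). Late reverted 129/MSM cells had 3 counts (1.23 CPM) with AICAR and 1 count (0.392 CPM) with AICAR+LIF. The sum over the 5 Oct4GIP libraries was 66.7 times that over the 2 129/MSM libraries (95% exact binomial interval 25.9 to 245), and the primed 129/MSM level 54.1 times theirs (20.6 to 201).

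With d16+10p split by line, a comparison added after the counts were seen, Etv4 was the 1 of the 10 genes that differed between 129/MSM and Oct4GIP, against 1.12% of all genes called lower (adjusted p = 0.00319, edgeR). Without 129/MSM AICAR the adjusted p was 0.0669 and without 129/MSM AICAR+LIF 0.108. The change from primed to d16+10p was not shown to differ between lines, as the interaction for Etv4 was -4.48 ± 1.52 (SE) on the log2 scale (adjusted p = 0.149, edgeR). None of the 10 genes passed that test by edgeR, DESeq2 or limma, 1 had an unadjusted p under 0.05 (14.9% of all genes did), and 1.35% of all genes were called. With 1 primed library per line, line, sex, medium and culture on feeders cannot be told apart.

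**Figure D2:**
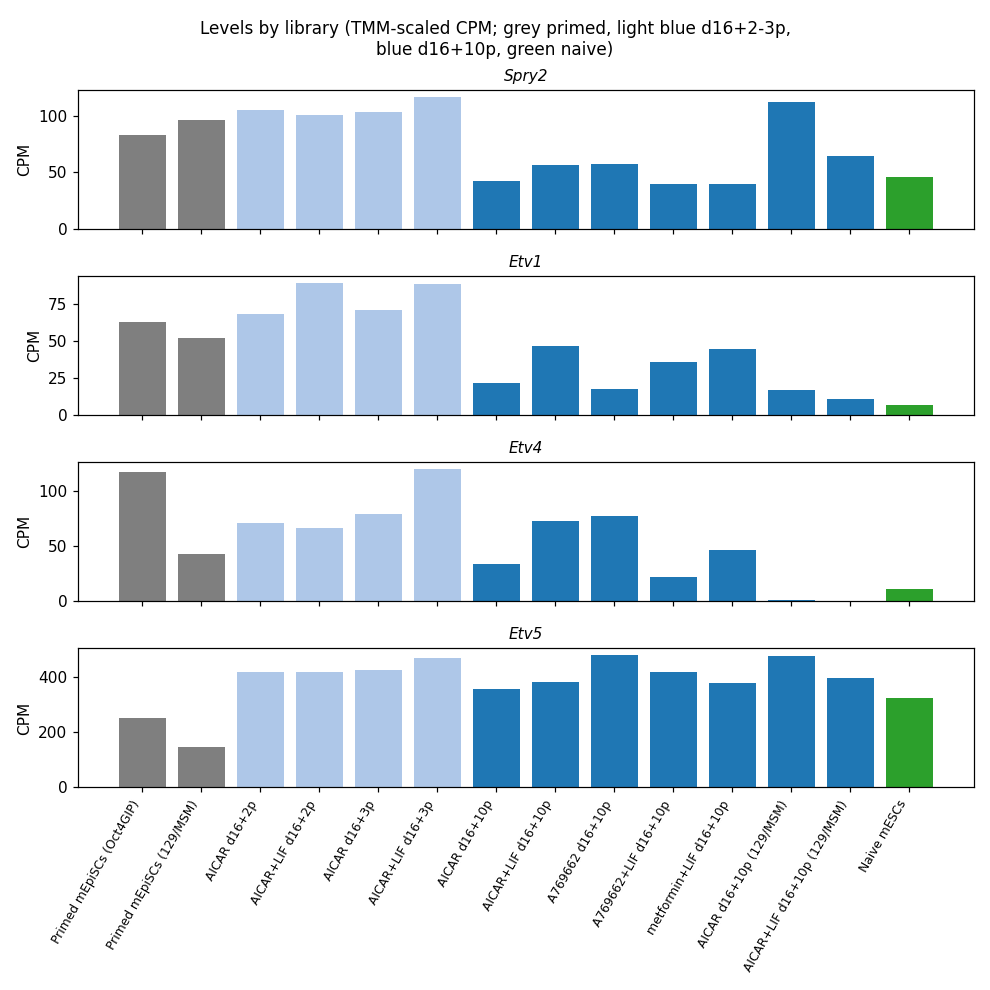
TMM-scaled CPM of Spry2, Etv1, Etv4 and Etv5 in the 2 primed, 4 d16+2–3p, 7 d16+10p and 1 naive library, 1 bar per library from 0. Etv4 is at 1.23 CPM or less in the 2 late 129/MSM libraries and at 21.9 to 77.6 CPM in the 5 late Oct4GIP libraries, while Etv5 stays between 358 and 480.0 CPM in both lines.

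Counted over the 10 genes, 2 (Dusp4, Dusp6) were called lower and 1 (Etv5) higher at d16+2–3p than in primed mEpiSCs, where 20.3% of all 18739 genes were called lower and 18.0% higher. At d16+10p 5 were called lower than in primed (Spry4, Spred1, Dusp4, Dusp5, Dusp6; 19.9% of all genes) and 1 higher (Etv5; 16.7%). Between the reverted groups 5 were called lower at 10 passages (Spry4, Dusp4, Dusp5, Dusp6, Etv1; 4.61% of all genes) and 0 higher. For those 5 every late library was below every early one, which held for 6.29% of all genes. How many of all genes, like Spred1, Dusp6 and Etv5, had no overlap between the primed and the late reverted libraries was not counted. The median log2 fold change of the 10 genes was 0.16, -1.14 and -1.35 in these comparisons, against -0.04, -0.01 and 0.00 over all genes. All 10 had a negative log2 fold change between the reverted groups, where 50.03% of all genes did. The comparisons share libraries, and the 10 genes were chosen with earlier results of these data known.

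In primed mEpiSCs, 1 of the lines carried feeders, and 8 of the 10 fibroblast markers were called lower at d16+10p than in primed and 6 at d16+2–3p. Between the reverted groups 1 fibroblast marker, Col1a1, was called lower (36.1 and 44.9 CPM at 2 passages, 1.09 and 1.41 at 3 passages). The part of fibroblast RNA in the differences from primed was not tested. With Oct4GIP libraries alone among primed and reverted cells, 1 primed library remained, so no calls are given for this fit. The log2 fold changes from primed to d16+10p were then -6.58 for Dusp4, -6.22 for Dusp6, -3.60 for Spry4 and -0.90 for Spred1. Those of Dusp5 and Etv5 were -1.12 and 0.69, against -1.77 and 1.06 with both lines. With a term for the cell line, added after the counts were seen, 7 of the 10 were called at d16+10p against primed (1 higher, 6 lower), where 6764 of 18739 genes were called.

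**Figure D3:**
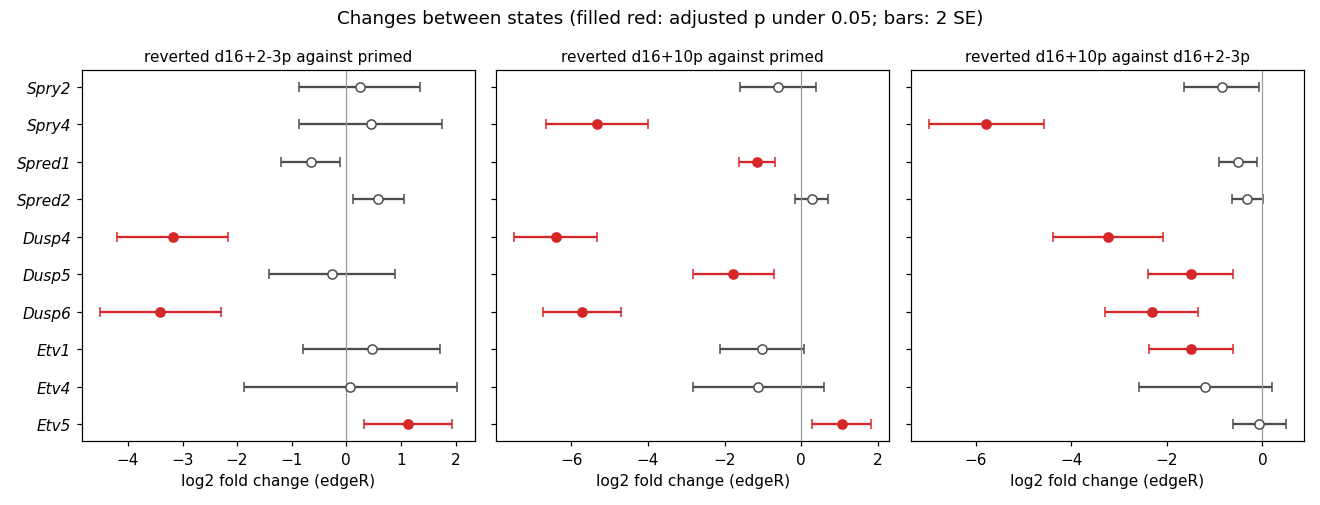
Log2 fold changes of the 10 genes in 3 comparisons of states by edgeR. Points are estimates, bars are 2 SE, and filled red points have an adjusted p under 0.05. Dusp4 and Dusp6 lie below 0 in all 3, Spry4 lies below 0 only where d16+10p is compared, and Etv5 lies above 0 against primed in both.

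Before expansion, the 8 cultures ask how 2iL and AICAR differed from Basal medium alone on d8 and d16. Dusp6 was 23.9 CPM in Basal, 9.95 in 2iL, 55.9 in AICAR and 65.2 in AICAR+LIF on d8, and 44.5, 12.03, 26.8 and 63.2 CPM on d16. The 2iL cultures were the lowest on both days. Etv1 was 13.0, 4.56, 38.8 and 35.6 CPM in the same order on d8 and 18.3, 3.21, 17.5 and 26.0 CPM on d16, again lowest in 2iL. Spry4 was 4.34, 2.49, 0.947 and 7.91 CPM on d8 (1 to 12 counts) and 20.2, 2.41, 7.18 and 12.04 CPM on d16. Etv4 was 3.26, 0, 1.89 and 5.93 CPM on d8, which is 9 counts or fewer, and 42.1, 9.23, 5.62 and 13.9 CPM on d16. For both genes Basal d16 was the highest of the 8 cultures.

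Spry2 was 40.9 CPM in Basal, 19.1 in 2iL, 79.5 in AICAR and 98.8 in AICAR+LIF on d8, and 176, 42.5, 35.3 and 65.5 CPM on d16, so that the order of Basal and AICAR differed between the days. Spred2 was 48.5, 31.1, 48.3 and 65.2 CPM on d8 and 58.9, 40.5, 42.4 and 46.7 CPM on d16, lowest in 2iL on both days. Dusp5 was 1.81, 0.829, 6.63 and 5.93 CPM on d8 (2 to 7 counts) and 3.77, 3.21, 3.74 and 6.399 CPM on d16 (8 to 20 counts). Counts of Dusp5 were low, and it was called in no comparison of treatments. Single cultures, 1 per treatment and day, were not tested against each other.

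Relative to Basal medium, 2iL gave a lower level on both days for 9 of the 10 genes, where 31.0% of the 15473 genes tested were lower on both days. The exception was Spred1, at 78.5 CPM in Basal and 80.4 CPM in 2iL on d8 and 158 and 114 CPM on d16. The median log2 fold change of the 10 genes was -1.42 against -0.02 over all genes, and all 10 estimates were negative, as were 52.2% of all genes. None was called (edgeR with the day as a term and 3 residual degrees of freedom; 0.0129% of all genes, 2 in number). The estimates and unadjusted p were -2.06 ± 0.51 (SE) and 0.00451 for Etv1, -1.63 ± 0.49 and 0.0118 for Dusp6, -2.05 ± 0.68 and 0.0192 for Spry4, and -2.29 ± 0.79 and 0.0222 for Etv4, with adjusted p of 0.353 to 0.605 (edgeR), and DESeq2 called 0 of the 10. An unadjusted p under 0.05 was found for 6.79% of all genes. The other 6 lay between -1.75 and -0.24 (unadjusted p 0.0538 to 0.553, edgeR). Single libraries moved these estimates: without Basal d16 Spry2 was at -0.18, Dusp6 at -0.89, Etv1 at -1.34 and Etv4 at -1.42, without 2iL d16 Spry4 was at -1.01, Dusp4 at -0.52, Etv4 at -6.76 and Etv5 at -2.97, and without 2iL d8 Spred2 was at -0.27, Dusp4 at -2.90 and Etv5 at -0.09. Spred1 turned to 0.30 without Basal d16, and Dusp5 to 0.08 without Basal d16 and 0.18 without 2iL d8. With no filter on low counts, Spry2, Dusp6, Etv1 and Etv4 were called (adjusted p 0.0150 to 0.0314), where 386 of 29643 genes were called.

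The sum of the fibroblast markers was highest in the 2iL culture on d16, at 51004 CPM against 5815 in Basal, 16689 in AICAR and 19456 in AICAR+LIF. Most of it came from Col1a1, Col1a2 and Col3a1 (17021, 14027 and 17427 CPM), and the next marker, Fbln2, was at 1306 CPM. On d16 Dcn, Postn and Pdgfrb were highest in AICAR or AICAR+LIF. Of the 10 markers 1 had a negative estimate for 2iL against Basal, and 0 were called (edgeR). On d8 the sum was 3595 CPM in 2iL and 3552 in Basal. Their part in the values was not tested.

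**Figure D4:**
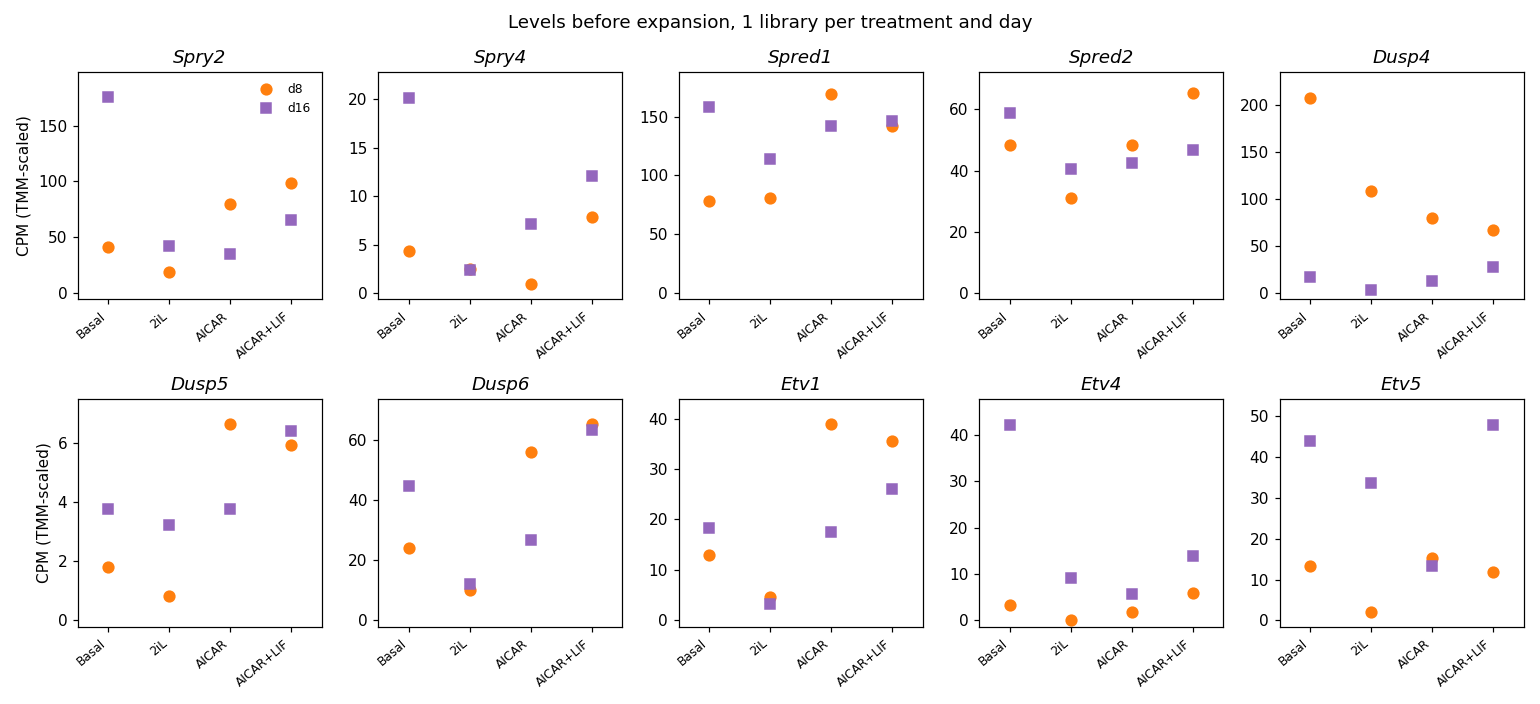
TMM-scaled CPM of the 10 genes in the 8 cultures, 1 library per treatment and day; the axes are linear and differ between genes. Dusp6 and Etv1 are lowest in 2iL on both days, at 9.95 and 12.03 CPM and at 4.56 and 3.21 CPM.

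Against 2iL, the AICAR and AICAR+LIF cultures had higher estimates for all 10 genes, with a median log2 fold change of 0.96 against -0.02 over all genes. Etv1 was called, at 2.90 ± 0.48 (SE, adjusted p = 0.0477, edgeR), where 0.297% of all genes were called higher. Dusp6 had 2.23 ± 0.46 and an adjusted p of 0.0796. The call of Etv1 was lost without any 1 of the 6 libraries compared (adjusted p 0.0828 to 0.143). These comparisons share the 2iL libraries with those of the preceding paragraphs.

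Against Basal medium, AICAR and AICAR+LIF gave 0 calls among the 10 genes by edgeR, DESeq2 and limma, against 4.53% of all genes by edgeR. Of the 10 genes, Etv4 alone had an unadjusted p under 0.05, where 25.8% of all genes did, with a log2 fold change of -1.73 ± 0.68 (SE, adjusted p = 0.170, edgeR). The largest rises by estimate were Dusp5 at 0.96 ± 0.64 and Etv1 at 0.84 ± 0.39 on the log2 scale (adjusted p 0.384 and 0.230), and both intervals of 2 SE, -0.32 to 2.23 and 0.05 to 1.62, include changes of more than 2-fold.

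Dusp4 and Etv4 changed with the day, in a comparison added after the counts were seen. Dusp4 was 207 CPM in Basal, 109 in 2iL, 79.5 in AICAR and 67.2 in AICAR+LIF on d8 and 17.0, 3.21, 12.5 and 28.2 CPM on d16, so that every d16 culture was below every d8 culture. Its log2 fold change was -3.07 ± 0.51 (SE, adjusted p = 0.00923, edgeR), where 9.36% of all genes were called lower. Etv4 rose by 3.11 ± 0.70 (adjusted p = 0.0215), where 14.9% of all genes were called higher, and the adjusted p was 0.116 without Basal d8 and 0.132 without Basal d16. Fibroblast markers rose over the same days, 7 of 10 being called higher, and their part was not tested.

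Etv5 was low in all cultures. Its level was 13.4, 2.07, 15.1 and 11.9 CPM in Basal, 2iL, AICAR and AICAR+LIF on d8 and 43.9, 33.7, 13.4 and 47.8 CPM on d16, whereas the lowest of the other 14 libraries was 148 CPM. Pou5f1 was 35.6 CPM or less in the same 8 cultures. Across the 22 libraries, the 3 genes outside the 10 whose log2 CPM was most like that of Etv5 were Alkbh7 (r = 0.97), Gm4798 (0.97) and Pald1 (0.96), among 10879 genes with a mean log2 CPM of at least 3. For Dusp6 they were Fam83h (0.89), Cers4 (0.86) and Cep170b (0.86), for Spry4 Cflar (0.88), Rab33b (0.84) and Myrf (0.81), and for Etv4 Pnpla7 (0.79), Naprt (0.79) and H2-Q4 (0.78), the last of a family with near-identical copies. Within the 10 genes the highest r were 0.86 for Spred2 and Etv5, 0.80 for Dusp4 and Dusp6 and 0.78 for Spred1 and Dusp6, and the lowest was -0.74 for Dusp4 and Etv5. They differed within subsets of the libraries: in the 11 reverted libraries r was -0.12 for Spred2 and Etv5 and 0.18 for Dusp4 and Etv5, and in the 8 cultures it was 0.17 for Dusp4 and Dusp6. These values share libraries and depth and are given with no p.

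Other genes of the pathway were counted in the same comparisons. Of all 18739 genes, 16.7% were called higher and 19.9% lower at d16+10p than in primed. At d16+2–3p these shares were 18.0% and 20.3%, and between the reverted groups 4.75% and 4.61%. Of 10 further feedback genes, 9 were tested. At d16+10p 5 of them were lower than in primed and 1 higher, with Spred3, a further Sprouty-related gene, at 26.9 and 64.1 CPM in primed and 1.51 to 8.11 CPM at d16+10p (log2 fold change -3.51, adjusted p = 3.02e-06, edgeR). At d16+2–3p 4 were lower than in primed, and between the reverted groups 1 was higher, the phosphatase gene Dusp7 (7.03 to 9.51 CPM at d16+2–3p, 12.3 to 21.8 at d16+10p, adjusted p = 0.0229). None was called for 2iL against Basal (0 had an unadjusted p under 0.05).

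Of 14 early and late targets of ERK, 5 were lower and 2 higher at d16+10p than in primed (19.9% and 16.7% of all genes). At d16+2–3p 3 were lower and 2 higher (20.3% and 18.0%). The ephrin receptor gene Epha4 rose, from 5.15 and 18.3 CPM in primed to 91.8 to 183 CPM at d16+10p (log2 fold change 3.42, adjusted p = 6.70e-07, edgeR). Between the reverted groups 1 was called, Myc, a growth-promoting transcription factor gene, which fell from 16.4 to 38.7 CPM at d16+2–3p to 2.94 to 17.6 CPM at d16+10p (adjusted p = 0.00568). In the cultures 0 of 13 tested were called for 2iL against Basal, and 6 had an unadjusted p under 0.05, as did 6.79% of all genes. Egr1, an immediate early gene, was called lower with AICAR than in Basal (log2 fold change -1.14, adjusted p = 0.0485).

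The cascade itself (16 genes from Grb2 to Mapk3) was called both ways. At d16+10p 4 were higher and 5 lower than in primed (16.7% and 19.9% of all genes). At d16+2–3p 4 were higher and 3 lower (18.0% and 20.3%). Between the reverted groups 2 were higher and 1 lower (4.75% and 4.61%). Of 9 FGF ligands and receptors, 1 was higher and 5 lower at d16+10p than in primed, and 0 were called between the reverted groups, where 2 had an unadjusted p under 0.05, as did 22.9% of all genes. Fgf4, the ligand that naive cells produce, was 5.15 and 5.69 CPM in primed, 137 to 168 CPM at d16+2–3p and 116 to 266 CPM at d16+10p (log2 fold change 5.23, adjusted p = 1.23e-08, edgeR). Of 9 other ETS factor genes tested, 2 were higher and 1 lower at d16+10p than in primed, and Erf, a repressor that ERK controls, was 53.7 and 68.9 CPM in primed, 168 to 191 CPM at d16+2–3p and 98.3 to 143 CPM at d16+10p.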

How the data were processed

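Total RNA libraries of 22 samples were sequenced as stranded mRNA. The authors aligned single reads to the cDNA and ncRNA sequences of Ensembl GRCm38 with Bowtie2 2.2.5, left out alignments with a MAPQ under 1, and deposited raw counts per gene and per transcript, with no normalization. Near-identical isoforms or paralogs share reads, which may then be dropped or given to 1 of them. The deposited summary of detected genes was not used here.

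Tests on counts were those of edgeR 4.0.16 in R 4.3.3 (quasi-likelihood, with TMM factors, the filter filterByExpr and a Benjamini-Hochberg threshold of 0.05). States were compared in 1 fit of all 22 libraries in 6 groups (18739 genes), and treatments in the 8 cultures with the day as a term (15473 genes). The naive group entered no test. Levels are CPM on TMM-scaled totals. Totals of 438771 to 5290163 reads limit genes at low counts. Correlations used log2 CPM with a pseudocount of 0.5 counts. Alternatives used DESeq2 1.42.0, limma 3.58.1, other filters, scalings, sets of libraries and terms. The scripts were tested on simulated data.

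The members and the lists of further genes were chosen with earlier results of these data known. The 10 genes are named in every comparison. From each list (feedback genes, ERK targets, ETS factors, the cascade, FGF ligands and receptors), at most 2 genes per comparison with the smallest adjusted p and the 2 with the highest mean log2 CPM could be named. The comparisons of d16 with d8 and between cell lines were added after the counts were seen. Positions are from GENCODE M21 and promoters from RefSeq (GRCm38.p6). Tables were made with Python 3.11.15, numpy 2.4.6 and pandas 2.3.3, and figures with matplotlib 3.10.9.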

Additional observations from a re-analysis of the deposited data

Results flagged for a closer look

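In 40 sets of 4 to 7 libraries (10 genes in 4 groups), 2 held a library far from the others by Dixon's criterion, and chance flags about 1 set in 20. Spry2 was 112 CPM in 129/MSM AICAR d16+10p, against 39.6 to 64.3 CPM in the other 6 late libraries. Etv5 was 471 CPM in AICAR+LIF d16+3p, against 419 to 426 CPM in the other 3 early reverted libraries.

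In 30 pairs of contrasts between treatments on d8 and d16, 4 had opposite directions on the 2 days, and the difference between days was not tested. Spry2 was higher with AICAR and AICAR+LIF (79.5 and 98.8 CPM) than in Basal (40.9 CPM) on d8 and lower on d16 (35.3 and 65.5 against 176 CPM), a difference of -2.97 between d16 and d8 in the mean log2 ratio. Spred1 was higher with AICAR and AICAR+LIF (169 and 142 CPM) than in Basal (78.5 CPM) on d8 and lower on d16 (142 and 146 against 158 CPM), a difference of -1.11 in the mean log2 ratio. In 2iL, Spred1 was above Basal on d8 and below it on d16, a difference of -0.50. Dusp4 was lower with AICAR and AICAR+LIF (79.5 and 67.2 CPM) than in 2iL (109 CPM) on d8 and higher on d16 (12.5 and 28.2 against 3.21 CPM), a difference of 2.95. The d8 libraries with AICAR and AICAR+LIF had the lowest totals, 956357 and 438771 reads.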

How the results depend on the processing

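No paired analysis was possible because no label gives libraries of the compared groups a shared replicate number. Over the alternatives, 498 values of single genes or levels and 156 counts stayed the same. For single genes this meant the same direction and side of the threshold, and for counts a change within 1.5 times. For levels it meant a mean that differed from the main one by no more than the SD of the group. A further 90 counts moved beyond 1.5 times, and of the single values 46 lost the threshold, 6 passed it, 3 turned direction and 1 level moved. Single genes were followed where the main fit called them and, for 2iL against Basal, for all members. Etv4 for the interaction and Dusp6 for AICAR against 2iL were added. Other genes that only an alternative called are not among the 6, so the 46 and the 6 cannot be weighed against each other. For 2iL against Basal, Dusp5 turned to 0.18 without 2iL d8 and to 0.08 without Basal d16, and Spred1 to 0.30 without Basal d16, on the log2 scale (ranges without 1 library at a time -1.68 to 0.18 and -0.65 to 0.30); the cause was not tested. The level that moved was that of Dusp4 in primed, at 61.3 CPM without normalization factors against 57.9 CPM with them (SD of the 2 libraries 1.90).

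Requiring 10 counts in every library left 3 of the 10 genes in the fits of states and 4 in those of cultures. In the fits of states this filter removed Spry4 and all Dusp and Etv genes, among them Etv5, which rose. Spred1, which fell from primed to d16+10p, was kept by this filter. With this filter, 2878 genes were called against primed at d16+10p, 3208 at d16+2–3p, 877 between the reverted groups, 0 for 2iL and 310 for AICAR against Basal, 1 for AICAR against 2iL, 2214 between days and 243 between lines, and of the 10 genes 1, 1, 0, 0, 0, 0, 0 and 0. With no filter, 386 genes (4 of the 10) were called for 2iL against Basal, 2404 (1) for AICAR against Basal, 1371 (2) for AICAR against 2iL, and 4 of the 10 between days. In the main fit 24.3% of all genes were called between days. DESeq2 called 99, 1387 and 610 genes in the 3 comparisons of treatments (2 of the 10 for AICAR against 2iL), 880 between lines and 721 for the interaction. By limma voom, 0 genes were called for 2iL against Basal and 38 for AICAR against 2iL, and of the 10 genes 5 at d16+2–3p against primed (6896 of 18739 genes), 0 for AICAR against 2iL, 4 between days (4772 of 15473) and 0 between lines. Fitting only the compared groups called 3002 genes between the reverted groups and 5 of the 10 at d16+2–3p against primed (6656 of 14529). With no term for the day, 0 genes were called in each comparison of treatments (0 of the 10). Without AICAR d8 and AICAR+LIF d8, 37 genes were called for 2iL and 252 for AICAR against Basal, and 0 of the 10 for AICAR against 2iL and 4 between days. For these last 2 comparisons the main fit called 1.06% and 24.3% of all genes.

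Leaving out 1 library at a time gave 4463 to 6765 genes at d16+10p against primed, 936 to 1847 (3 to 5 of the 10) between the reverted groups, 0 to 64 for 2iL and 0 to 79 for AICAR against Basal, 0 to 89 (0 to 0 of the 10) for AICAR against 2iL, 1462 to 2986 (1 to 3) between days, 123 to 563 (0 to 1) between lines and 126 to 258 for the interaction. Etv5 against primed had an adjusted p of 0.0565 (d16+10p) and 0.0604 (d16+2–3p) without normalization factors (edgeR). Depth limits Spry4, Dusp4, Dusp5 and Etv4 where they had 3 counts or fewer.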

Other observations

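Egr1, an immediate early gene that ERK induces through serum response factor, varied widely between reverted libraries. It was 1.48 and 2.28 CPM after 2 passages, 37.0 and 21.4 CPM after 3 passages, and, after 10 passages, 88.5 CPM in AICAR+LIF and 149 CPM in A769662 but 1.23 CPM or less in AICAR, A769662+LIF, metformin+LIF and both 129/MSM libraries. Naive mESCs were at 174 CPM, and primed Oct4GIP and 129/MSM at 2.94 and 111 CPM. The late libraries with high Egr1, AICAR+LIF and A769662, had 3 and 0 counts of Spry4. Their Etv4 was at 72.7 and 77.6 CPM, against 34.1, 21.9 and 46.8 CPM in the other late Oct4GIP libraries. Myc, in contrast, was 2.94 to 6.49 CPM in all 5 late Oct4GIP libraries and 16.4 to 38.7 CPM in the 4 early ones. Dusp4 was highest of all 22 libraries in Basal d8 (207 CPM), above both primed lines.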
